A study of Mus musculus with 12 samples.

Results

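The response of mouse epidermis 2 h after wounding was measured as the difference between 4 samples taken 2 h after wounding and 4 non-wounded samples. The samples were chosen by their titles, which give the time after wounding and a replicate number from 1 to 4 in both groups, and they are 8 of the 12 samples of the study. The study measured RNA on a single-colour Affymetrix array with 1246 probe sets, many of them for cytokines, chemokines, their receptors, growth factors, lectins and the enzymes that build or remove glycans. Its stated aim was to find genes of keratinocytes that change in response to wounding and to look for the unknown ligand of the epidermal T cell receptor. It also took samples at other times, of which the 2 at 30 min enter the estimate of the spread. Some values at 0 h, 30 min and 4 h are described near the end. Both groups carry the label B6 in their titles, and no other genotype, allele or agent is named. No source used here gives the age or sex of the mice, the kind of wound or how many mice stand behind a sample. Nothing in the labels says that the samples of a group came from separate mice, so a p-value reflects only how much these samples varied, and that variation may be technical.

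The epidermis is made mainly of keratinocytes, with Langerhans cells, which are antigen-presenting cells, and, in mice, dendritic epidermal T cells (DETC), a resident gamma delta T cell population. Injured keratinocytes are known to release ligands of the EGF receptor, which act on keratinocytes themselves, and chemokines, which draw neutrophils and other leukocytes to the wound. Sugar chains on proteins, on lipids and in the hyaluronan matrix are also remodelled while a wound closes, and many enzymes of that chemistry are on the array.

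The labels call every sample dendritic epidermal T cells, whereas the study's design text plans RNA from whole epidermis. In the non-wounded samples the keratinocyte markers Lgals7 and Sdc1 averaged 12.08 and 8.99 on the log2 scale. The 6 Langerhans cell markers ran from 3.44 for Ly75 to 10.78 for Cd74, with Cd207 at 7.86, and the 8 T cell markers from 2.38 for Klrk1, which encodes the NKG2D receptor carried by DETC, to 6.48 for Il2rg. The median over all probe sets was 4.11. Levels of different probe sets do not rank as amounts of RNA, so these values do not settle which description holds, and the samples are called epidermis here after the design text. In such a mixed tissue, fewer cells of a type and less RNA per cell cannot be told apart.

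The samples numbered 1 stood apart from the others in both groups. The SD of values over the 1246 probe sets was 1.81 in non-wounded sample 1 and 1.59 in 2 h sample 1, against 2.19 to 2.30 in the other 6. The replicate number was therefore taken as a block, and each difference is the mean of 4 differences within a pair of the same number. Same-numbered samples deviated together from their group means, but whether the other numbers mark true pairs was not tested. The difference in pairs 2 to 4 alone is given beside that of each called gene.

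At 2 h, 17 of 1246 probe sets (1.36%) passed an adjusted p of 0.05 in limma with the pairs as a block. Of these, 14 (1.12%) rose and 3 (0.241%) fell. The 12 named genes that rose encode secreted ligands of the EGF receptor (Hbegf, Areg), chemokines (Ccl20, Cxcl1, Cxcl2, Ccl21a), a vascular growth factor (Vegfa), a leukocyte adhesion molecule (Icam1), a transcription factor (Junb), molecules of antigen-presenting cells or T cells (Cd207, Havcr2) and an enzyme of UDP-GlcNAc synthesis (Uap1). The 1 named gene that fell, Il20rb, encodes a subunit of the receptor for IL-20 family cytokines. All 17 differences had 1 sign in all 4 pairs, where 13.4% of all probe sets were higher and 11.6% lower in all 4. The fit that called them used the same differences, so the shared sign is not separate support. In 11 of the 14 that rose, every 2 h sample lay above every non-wounded sample, where 2.01% of all probe sets did so, and in 1 of the 3 that fell every 2 h sample lay below, where 2.73% of all did so.

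The pairing and single pairs carried much of that count. Without the block 3 probe sets passed (Hbegf, Ccl20 and 1 without a name), and without the pair numbered 2, 3 or 4 the count was 0, 3 or 4. With pair 2 left out, limma gave 163 probe sets at an unadjusted p under 0.05 and a smallest adjusted p of 0.0843. Hbegf, Icam1 and the unnamed probe set passed without pair 1, 3 or 4 (adjusted p 0.0142, 0.0480 and 0.00944 for Hbegf), 12 others passed only without pair 1, and Il20rb and 1 unnamed probe set that fell passed in none of these. The split of 14 higher and 3 lower became 13 and 0 after repeated quantile normalization, 8 and 1 after centring on the medians, and 10 and 0 after scaling to the same median and SD. Hbegf, Icam1, Ccl20, Cxcl2, Vegfa and Areg passed under all 3 scalings, and Cxcl1, Ccl21a, Havcr2 and Il20rb under none.

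**Figure D1:**
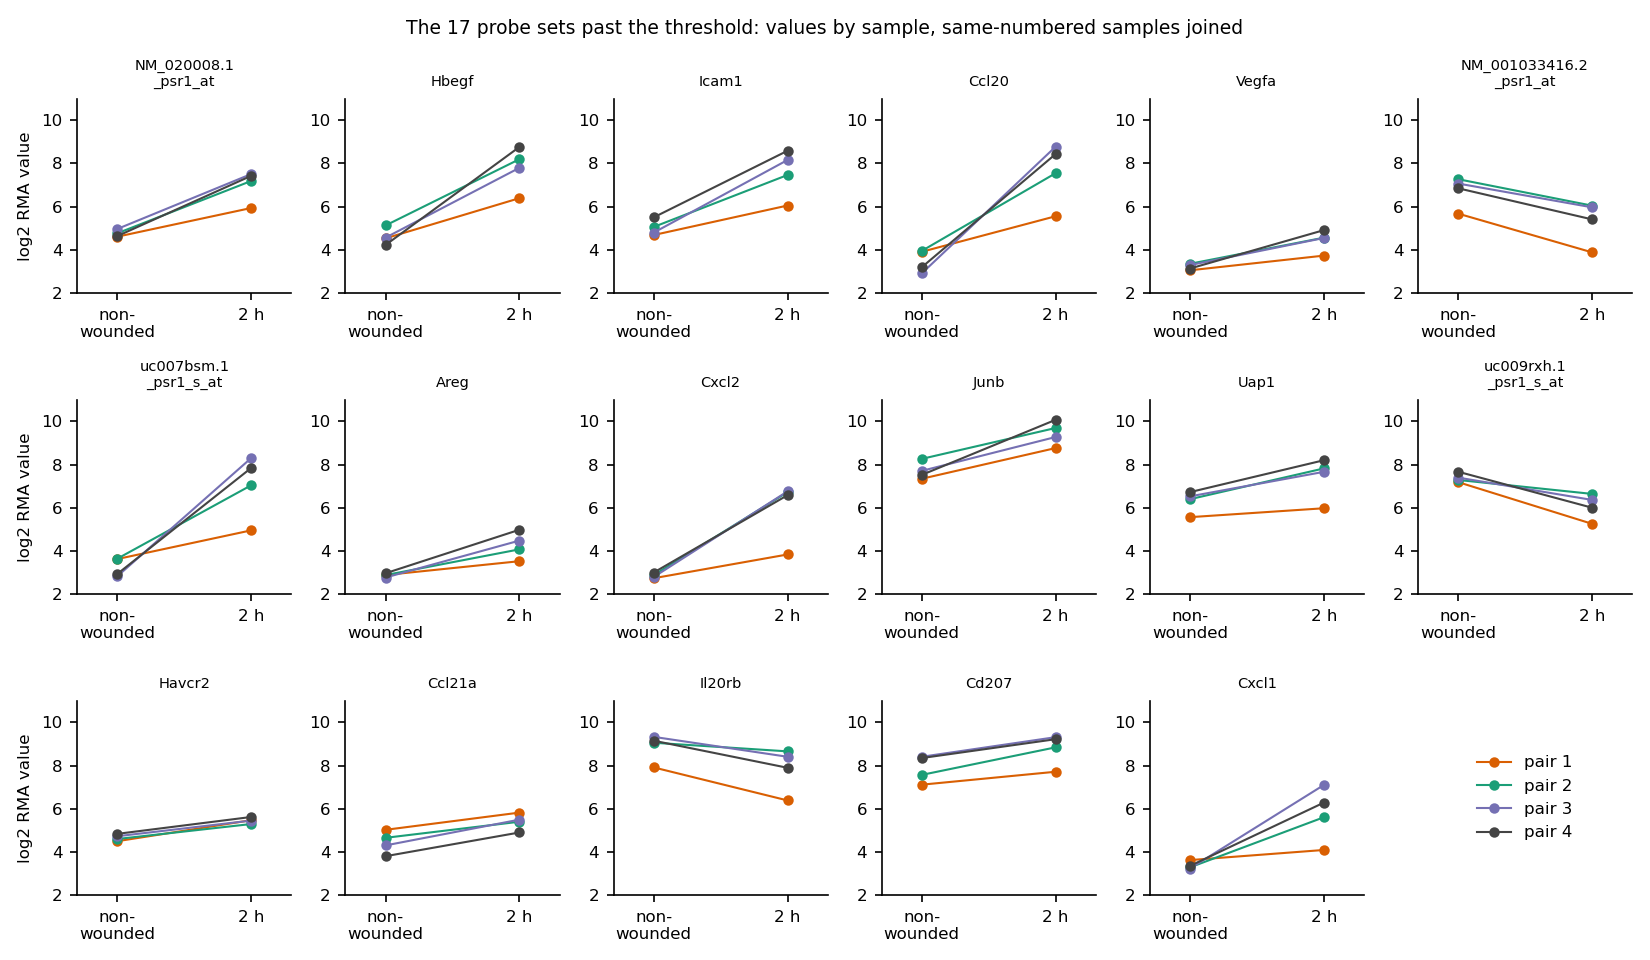
Log2 values of the 17 probe sets that passed, in each of the 4 non-wounded and 4 2 h samples, with points of the same pair joined. In most panels the line of pair 1 is the flattest among genes that rose, and for Ccl20, Hbegf, Icam1 and Cxcl2 all 2 h points lie above all non-wounded points.

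Hbegf encodes heparin-binding EGF-like growth factor, a membrane-anchored ligand of the EGF receptor that is shed from the cell surface. Its log2 values were 4.53, 5.13, 4.56 and 4.22 in non-wounded samples 1 to 4 and 6.39, 8.20, 7.80 and 8.77 in 2 h samples 1 to 4. All 4 2 h samples were above all non-wounded samples, with sample 1 the lowest of them. The difference was 3.18 ± 0.35 (log2, SE, 4 pairs), a 9.05-fold rise with an adjusted p of 0.00953. In pairs 2 to 4 it was 3.62 ± 0.31 with an adjusted p of 0.0142. Hbegf and Ccl20 were the named genes that also passed without the block, where the adjusted p of Hbegf was 0.0376.

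Areg encodes amphiregulin, another shed ligand of the same receptor. It was near the lower end of the scale in non-wounded skin, at 2.88, 2.88, 2.76 and 2.96, and read 3.52, 4.07, 4.47 and 4.98 at 2 h. No values overlapped between the groups, and each 2 h sample exceeded its own partner by at least 0.64. The difference was 1.39 ± 0.22, a 2.62-fold rise with an adjusted p of 0.0297, and in pairs 2 to 4 it was 1.64 ± 0.18 (adjusted p 0.0250). The array held 6 members of the EGF family of ligands and receptors. The 2 named here rose, the median of the 6 was -0.04, and the receptor gene Egfr differed by -0.31 ± 0.26 (adjusted p 0.657), with values of 5.63, 7.60, 8.04 and 7.84 before and 4.80, 7.98, 7.53 and 7.56 at 2 h. The Egfr values overlapped, and the direction differed between pairs, with pair 2 higher and the other 3 lower. A second Egfr probe set differed by -0.07 (adjusted p 0.826).

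Ccl20, a chemokine that attracts cells bearing the receptor CCR6, had the largest difference of all probe sets. Its values were 3.91, 3.95, 2.91 and 3.19 in non-wounded samples 1 to 4 and 5.56, 7.55, 8.78 and 8.44 at 2 h. Non-wounded levels were in the lower part of the scale, and at 2 h samples 2 to 4 stood high on it while sample 1 lay between. The rise was 4.09 ± 0.58 (log2, SE, 4 pairs) or 17.1-fold, with an adjusted p of 0.0265 and of 0.0412 without the block. In pairs 2 to 4 it was 4.91 ± 0.44 (adjusted p 0.0142). The receptor gene Ccr6 lay between 3.62 and 4.26 in all 8 samples and did not pass (adjusted p 0.862).

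Cxcl1 and Cxcl2 encode neighbouring CXC chemokines that attract neutrophils through the receptor CXCR2. Cxcl2 read 2.73, 2.87, 2.78 and 2.99 in non-wounded samples, and 3.83, 6.72, 6.76 and 6.58 at 2 h. The non-wounded samples lay close together, 2 h samples 2 to 4 lay close together far above them, and 2 h sample 1 stood alone between. The difference was 3.13 ± 0.50, 8.74-fold, with an adjusted p of 0.0297. In pairs 2 to 4 it was 3.80 ± 0.12 with an adjusted p of 0.000803.

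Cxcl1 read 3.62, 3.28, 3.23 and 3.35 in non-wounded samples and 4.09, 5.60, 7.10 and 6.28 at 2 h. There was no overlap, but the lowest 2 h value, again sample 1, was within 0.47 of its partner. The difference of 2.40 ± 0.45 (5.27-fold) had an adjusted p of 0.0463, and in pairs 2 to 4 it was 3.04 ± 0.30 (adjusted p 0.0196). Cxcr2 had 2 probe sets, which lay between 2.89 and 4.88 in these samples, and neither passed.

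Ccl21a, a ligand of CCR7 known for guiding dendritic cells to lymph nodes, read 5.02, 4.65, 4.30 and 3.80 in non-wounded samples and 5.82, 5.40, 5.49 and 4.90 at 2 h. The groups overlapped, because non-wounded sample 1 was above 2 h sample 4, yet each 2 h sample was above its partner, by 0.75 to 1.19. The rise was 0.96 ± 0.17 (1.94-fold, adjusted p 0.0448), and 1.01 ± 0.13 in pairs 2 to 4 (adjusted p 0.0364). Ccl21c, a near-identical copy, differed by 0.81 ± 0.21 (adjusted p 0.122), so which copy the signal belongs to is uncertain.

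Of the 17 measured CC chemokine genes 2 rose, Ccl20 and Ccl21a, and 15 had a mean difference above 0 with a median of 0.16. Of 13 CXC, XC and CX3C chemokine genes 2 rose, Cxcl1 and Cxcl2, and 10 had a difference above 0 with a median of 0.11. Of 19 chemokine receptor genes 0 passed and 10 were above 0, with a median of 0.01. Over all 1246 probe sets 54.5% were above 0 and the median was 0.03. After samples were scaled to the same median and SD, the CC median was 0.07 with 11 above 0, and the CXC median turned to -0.01 with 6 above 0. The receptor median turned to -0.09, and the median of all probe sets was -0.06 with 457 above 0. The median non-wounded levels of the CC and CXC lists were 3.49 and 3.37, against 4.11 for all probe sets. The part of level was not tested.

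The promoters of Ccl20, Cxcl1 and Cxcl2 are shown because these chemokine genes rose together and each held a match to the NF-kappaB consensus, while that of Areg held a cyclic AMP response element (CRE). NF-kappaB is a transcription factor that is known to drive many inflammatory chemokine genes. Each run is the 250 bases before the RefSeq gene start on the plus strand of GRCm38.p6, 5′ to 3′, with the motif in capitals.
Ccl20, chr1:83116516-83116765: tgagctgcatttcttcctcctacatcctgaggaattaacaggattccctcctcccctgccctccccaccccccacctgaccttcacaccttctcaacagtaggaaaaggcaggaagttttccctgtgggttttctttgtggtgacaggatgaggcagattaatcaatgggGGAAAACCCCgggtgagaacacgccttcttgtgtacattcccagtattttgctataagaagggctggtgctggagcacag
Cxcl1, chr5:90890995-90891244: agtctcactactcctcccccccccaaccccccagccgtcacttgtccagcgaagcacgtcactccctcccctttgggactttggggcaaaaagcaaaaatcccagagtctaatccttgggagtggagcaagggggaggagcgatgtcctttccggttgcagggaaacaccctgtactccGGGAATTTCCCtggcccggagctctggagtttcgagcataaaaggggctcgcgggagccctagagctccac
Cxcl2, chr5:90903649-90903898: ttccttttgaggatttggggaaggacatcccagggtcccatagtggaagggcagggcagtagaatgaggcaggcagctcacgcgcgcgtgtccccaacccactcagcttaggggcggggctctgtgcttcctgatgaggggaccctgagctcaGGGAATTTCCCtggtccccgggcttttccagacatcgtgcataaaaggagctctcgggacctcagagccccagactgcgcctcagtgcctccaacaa
Areg, chr5:91139349-91139598: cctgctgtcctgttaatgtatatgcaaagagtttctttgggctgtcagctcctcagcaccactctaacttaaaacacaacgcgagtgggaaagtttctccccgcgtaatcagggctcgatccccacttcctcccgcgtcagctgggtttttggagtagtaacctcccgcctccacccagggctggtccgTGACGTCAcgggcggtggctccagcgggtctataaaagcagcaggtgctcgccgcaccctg
Cxcl1 and Cxcl2 held the same 11 letters, GGGAATTTCCC, which match on both strands, starting 71 and 97 bases before the gene start. The Ccl20 match started 80 bases before the start, on the minus strand as GGGGTTTTCC. The CRE letters TGACGTCA, which read the same on both strands, began 61 bases before the start of Areg.

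The 3 motifs were searched on both strands in the windows of the 11 named genes that rose and lie outside chromosome 18. The NF-kappaB consensus was found in 4 of the 11 (Ccl20, Cxcl1, Cxcl2 and Vegfa). It was also found in 3.90% of 32851 windows of the same length and, counted by gene, in 6.78% of the 708 array genes with a window. Chromosome 18 was not left out of either background. The AP-1 letters TGANTCA were found in 2 of the 11 (Cd207 and Havcr2), against 6.75% and 8.19%. The CRE was found in 1 of the 11 (Areg), against 1.55% and 1.69%. The Icam1 window held none of these letters, and no match was found for Ccl21a, the other chemokine gene that rose. These matches describe the sequence and no binding was measured here.

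Icam1 encodes an adhesion molecule of the cell surface that binds leukocyte integrins. It read 4.68, 5.06, 4.79 and 5.50 in non-wounded samples and 6.05, 7.47, 8.16 and 8.59 at 2 h. All 2 h samples were above all non-wounded ones, and sample 1 was again the lowest. The rise of 2.56 ± 0.31 (5.89-fold) had an adjusted p of 0.0114, and in pairs 2 to 4 it was 2.95 ± 0.20 (adjusted p 0.0128). Of the 14 measured adhesion molecule genes only Icam1 passed. Of these genes 13 were above 0, with a median of 0.18, or 0.07 with 11 above 0 after scaling. Of all 1246 probe sets 54.5% were above 0, and 457 were after scaling. The median non-wounded level of the list was 3.39, against 4.11 for all probe sets, and the part of level was not tested. Madcam1, a vascular adhesion molecule for lymphocytes, differed by 0.37 ± 0.14 (adjusted p 0.284).

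Vegfa, the main growth factor for blood vessels, read 3.05, 3.35, 3.29 and 3.13 in non-wounded samples and 3.73, 4.56, 4.54 and 4.91 at 2 h. All 2 h values exceeded all non-wounded values, at levels below the array median in the non-wounded samples. The rise was 1.23 ± 0.18 (2.35-fold, adjusted p 0.0265), and 1.41 ± 0.15 in pairs 2 to 4 (adjusted p 0.0249). It was the 1 call among 19 measured genes of the VEGF, angiopoietin and PDGF families, of which 8 were above 0 and whose median was -0.09. Angptl4, an angiopoietin-like protein that inhibits lipoprotein lipase, was higher in every pair, by 1.04 ± 0.27 on average (adjusted p 0.130). Pdgfb, a growth factor for pericytes, read 7.13, 7.18, 6.76 and 6.16 before and 5.67, 5.84, 5.78 and 6.11 at 2 h without overlap. Its difference of -0.96 ± 0.23 missed the threshold (adjusted p 0.104), with pair 4 at -0.05 and the other 3 near or beyond -1.

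Junb encodes a subunit of the AP-1 transcription factor and belongs to the immediate early genes, which respond to signals without new protein synthesis. It read 7.34, 8.26, 7.71 and 7.52 in non-wounded samples and 8.76, 9.69, 9.28 and 10.07 at 2 h. Every 2 h sample lay above every non-wounded one, from a level that was already high. The rise was 1.74 ± 0.30 (3.35-fold, adjusted p 0.0448), and 1.85 ± 0.24 in pairs 2 to 4 (adjusted p 0.0389). Only 3 of the 29 listed immediate early and stress transcription factors were measured. Jund, another AP-1 subunit, differed by 0.47 ± 0.21 (adjusted p 0.366), and Prdm1, a repressor of lymphocyte and epidermal differentiation genes, by -1.02 ± 0.35 (adjusted p 0.268), most of it from pair 1 at -2.55.

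Cd207 encodes langerin, the lectin that defines Langerhans cells. It read 7.11, 7.57, 8.41 and 8.35 in non-wounded samples and 7.71, 8.85, 9.32 and 9.22 at 2 h. The groups overlapped, and each 2 h sample was above its partner, by 0.60 to 1.28. The rise was 0.91 ± 0.17 (1.89-fold, adjusted p 0.0448), and 1.02 ± 0.13 in pairs 2 to 4 (adjusted p 0.0351). Without the block its adjusted p was 0.998.

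Cd83, a marker of matured dendritic cells, read 4.17, 4.27, 3.76 and 4.36 before and 4.25, 5.78, 5.98 and 6.56 at 2 h. Sample 1 had hardly moved, and the other 3 at 2 h were above all non-wounded values. With all pairs the difference of 1.50 ± 0.33 missed the threshold (adjusted p 0.0900), whereas in pairs 2 to 4 Cd83 rose by 1.97 ± 0.18 (adjusted p 0.0142). Over the 6 measured Langerhans cell markers 1 rose (Cd207), the median difference was 0.08, and their mean level ran from 5.53 to 5.71 in non-wounded samples and from 5.51 to 6.34 at 2 h.

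Havcr2 encodes TIM-3, a receptor on T cells and myeloid cells. It read 4.50, 4.60, 4.73 and 4.84 in non-wounded samples and 5.47, 5.29, 5.45 and 5.62 at 2 h. The groups were tight and did not overlap, and the difference of pair 1 was the largest of the 4. The rise was 0.79 ± 0.14 (1.73-fold, adjusted p 0.0448), and 0.73 ± 0.10 in pairs 2 to 4 (adjusted p 0.0389).

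Markers of other cells that the tissue can hold were read beside these genes. None of the 8 measured T cell markers passed, and their median was 0.01. Cd2, a T cell adhesion receptor, had the smallest p among them, at 0.63 ± 0.18 (adjusted p 0.169). All 8 neutrophil markers were above 0 with 0 past the threshold, and their mean level ran from 3.78 to 3.86 in non-wounded samples and from 4.01 to 4.13 at 2 h, with Csf3r, the G-CSF receptor gene, at 0.36 ± 0.15 (adjusted p 0.310). All 8 dermal fibroblast markers (mean level 3.34 to 3.78, then 3.63 to 4.20) and all 6 endothelial markers (3.14 to 3.57, then 3.35 to 3.63) were also above 0 with 0 past the threshold. The matrix proteoglycan gene Dcn differed by 0.60 ± 0.20 (adjusted p 0.238) and Fmod by 0.55 ± 0.18 (adjusted p 0.232). After scaling, 6 of 8 neutrophil, 6 of 8 fibroblast and 4 of 6 endothelial markers were above 0. Of all 1246 probe sets 54.5% were above 0, and 457 were after scaling. The neutrophil, fibroblast and endothelial lists had median non-wounded levels of 2.99, 3.30 and 3.12. All probe sets in the lower bins of level had medians of 0.09 and 0.08, and the part of level in these counts was not tested. Of 8 named monocyte and macrophage markers 4 were above 0, and of 3 mast cell markers 2, with 0 past the threshold. The 2 keratinocyte markers had a mean level of 10.1 to 10.8, then 9.21 to 10.6, and the heparan sulfate carrier Sdc1 among them differed by -0.54 ± 0.24 (adjusted p 0.366). The part of these shifts in the genes above was not tested.

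Il20rb encodes the beta subunit shared by the receptors for IL-19, IL-20 and IL-24, cytokines that act on keratinocytes. It read 7.92, 9.06, 9.33 and 9.15 in non-wounded samples and 6.38, 8.66, 8.41 and 7.90 at 2 h. Every 2 h sample was below its partner, although the groups overlapped. The level fell by 1.03 ± 0.19 on the log2 scale (2.04-fold, adjusted p 0.0448), with pair 1 the largest difference. In pairs 2 to 4 the difference was -0.86 ± 0.18 and did not pass (adjusted p 0.132). The partner subunit gene Il20ra differed by -0.82 ± 0.32 (adjusted p 0.306), lower in 3 pairs and higher in pair 2.

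Of 15 measured genes of the IL-6, IL-10 and IL-20 families 1 fell (Il20rb), and 9 were above 0 with a median of 0.11. Il6, a proinflammatory cytokine, read 2.80, 2.33, 2.16 and 2.27 before and 3.18, 3.20, 3.08 and 4.17 at 2 h. The groups did not overlap, at very low levels, and the difference of 1.01 ± 0.24 did not pass (adjusted p 0.104). Il11ra2, a receptor gene for IL-11 with a close copy in the genome, differed by -0.70 ± 0.13 with 1 sign in all 4 pairs and missed the threshold narrowly (adjusted p 0.0529). Among 15 colony stimulating factor and receptor genes 0 passed, and Csf2rb, the shared beta chain of the GM-CSF, IL-3 and IL-5 receptors, was the nearest at 0.97 ± 0.20 (adjusted p 0.0643), higher by 0.83 to 1.34 in the 4 pairs. Il15, a cytokine that sustains T cells and NK cells, differed by -0.78 ± 0.19 (adjusted p 0.122).

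None of the 17 measured IL-1 family genes passed, and 14 of them were below 0, with a median of -0.28 against 0.03 for all probe sets. The median non-wounded level of the family was 6.02, against 4.11 for all probe sets. In the upper bins of level, all probe sets together had medians of -0.04 and -0.22, and the part of level in the family median was not tested. The family median was -0.19 in pairs 2 to 4 and -0.31 after scaling. Il1b, the proinflammatory member, went the other way: it read 4.08, 3.62, 3.52 and 3.60 before and 4.58, 4.43, 5.86 and 4.99 at 2 h. Its groups did not overlap, and the difference was 1.26 ± 0.29 (adjusted p 0.0987). Il1a, the form stored in keratinocytes, differed by -0.41 ± 0.14 (adjusted p 0.246), and Il1rn, the receptor antagonist, by -0.62 ± 0.18 (adjusted p 0.170). Il1f5, the IL-36 receptor antagonist, differed by -0.72 ± 0.23 (adjusted p 0.224), and Il1f9, an IL-36 agonist, by -0.89 ± 0.38 (adjusted p 0.355). These 4 were lower in all 4 pairs.

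Uap1 makes UDP-GlcNAc, the sugar donor for hyaluronan, N-glycans and O-GlcNAc, in the last step of the hexosamine pathway. It read 5.56, 6.39, 6.52 and 6.72 in non-wounded samples and 5.97, 7.82, 7.66 and 8.20 at 2 h. The groups overlapped through 2 h sample 1, and each 2 h sample was above its partner. The rise was 1.11 ± 0.20 (2.16-fold, adjusted p 0.0448), and 1.35 ± 0.12 in pairs 2 to 4 (adjusted p 0.0142). It was the 1 call among 15 hexosamine pathway genes, of which 5 were above 0 with a median of -0.05. Nagk, the salvage kinase for free GlcNAc, differed by -0.99 ± 0.28 (adjusted p 0.169). Ogt, which puts O-GlcNAc on intracellular proteins, differed by -0.68 ± 0.17 (adjusted p 0.117). Both were lower in all 4 pairs. Nagk differed by -1.88 in pair 1 and -0.69 in pairs 2 to 4, and Ogt by -1.13 and -0.53.

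Hyaluronan is a long glycan of the space between keratinocytes. Of the 7 measured genes for making, degrading or binding it, 0 passed and 6 were above 0, where 54.5% of all probe sets were. Their median was 0.32, or 0.26 after scaling. Has3, a hyaluronan synthase, read 3.62, 3.44, 3.64 and 3.26 before and 4.06, 4.04, 4.94 and 6.52 at 2 h. The groups did not overlap, but the pair differences ran from 0.43 to 3.26, and the mean of 1.40 ± 0.41 did not pass (adjusted p 0.170). Has2 and Has1, the other synthases, differed by 0.68 ± 0.26 (adjusted p 0.284) and 0.32 ± 0.16 (adjusted p 0.457). Cd44, the hyaluronan receptor, was higher in every pair, by 1.01 ± 0.25 on average (adjusted p 0.122), with values of 5.36, 8.71, 8.79 and 8.16 before and 6.54, 9.30, 9.21 and 10.04 at 2 h. Its samples numbered 1 were lower than the others in both groups.

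None of the 20 glycosphingolipid synthesis genes passed, and their median was -0.03. B4galt5, which makes lactosylceramide, read 4.35, 4.38, 4.60 and 4.34 before and 5.55, 4.94, 5.37 and 5.23 at 2 h. Its groups did not overlap, and the difference was 0.86 ± 0.19 (adjusted p 0.0908). Gal3st1, which makes sulfatide, read 8.65, 8.72, 8.10 and 7.84 before and 6.48, 7.22, 7.06 and 7.27 at 2 h, again without overlap but lower. Its difference was -1.32 ± 0.27 (adjusted p 0.0668), and -1.04 ± 0.19 in pairs 2 to 4 (adjusted p 0.0958).

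Fut1, which adds fucose to make the H antigen, read 5.45, 6.24, 5.85 and 5.69 before and 5.13, 4.84, 4.58 and 4.62 at 2 h. The groups did not overlap, and the difference of -1.01 ± 0.20 missed the threshold with all pairs (adjusted p 0.0544), whereas in pairs 2 to 4 it fell by 1.25 ± 0.11 (adjusted p 0.0142). Of 14 measured fucosyltransferase and fucose metabolism genes 0 passed with all pairs and 10 were below 0, with a median of -0.21. Neu3, a sialidase that acts on gangliosides, differed by -0.63 ± 0.16 (adjusted p 0.122). Hs3st6, a heparan sulfate sulfotransferase, differed by -1.05 ± 0.31 (adjusted p 0.174). For both, every 2 h sample lay below every non-wounded sample. Hs3st6 differed by -2.32 in pair 1 and -0.62 in pairs 2 to 4, and Neu3 by -0.15 and -0.79. B3gnt2, which starts polylactosamine chains, was higher by 0.42 to 0.65 in the 4 pairs (mean 0.53 ± 0.12, adjusted p 0.104).

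Of the 24 measured lysosomal glycosidases and sulfatases, which break down glycans, 0 passed with all pairs and 20 were below 0. The median was -0.28, or -0.25 in pairs 2 to 4 and -0.30 after scaling, and 11 of the 24 were lower in all 4 pairs, where 11.6% of all probe sets were. The median non-wounded level of this list was 5.46, against 4.11 for all probe sets, and the part of level was not tested. Arsa, which desulfates sulfatide, differed by -0.89 ± 0.27 (adjusted p 0.174) and fell by 0.99 ± 0.12 in pairs 2 to 4 (adjusted p 0.0351).

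**Figure D2:**
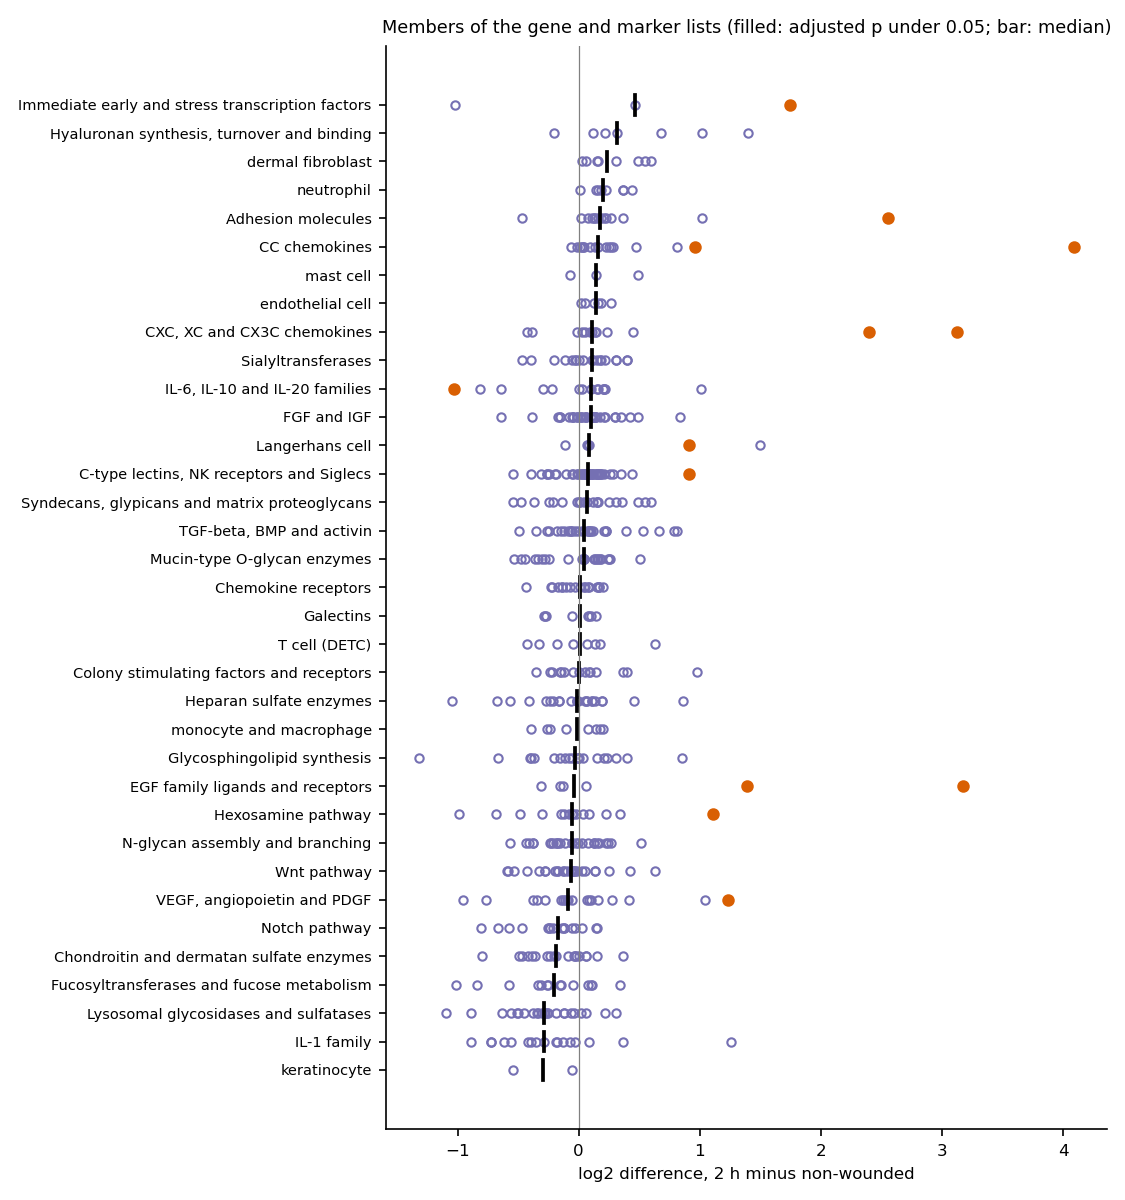
Log2 differences, 2 h minus non-wounded, of the measured members of the gene lists, 1 point per gene, with the median of each list. The IL-1 family and lysosomal enzymes have medians of -0.28, adhesion and hyaluronan genes 0.18 and 0.32, and Ccl20, Hbegf and Cxcl2 stand at 4.09, 3.18 and 3.13.

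Among genes of developmental signalling, 0 of the Notch, Wnt, FGF, IGF, TGF-beta, BMP and activin genes passed. Of 16 Notch pathway genes 13 were below 0, with a median of -0.17, or -0.15 after scaling and -0.10 in pairs 2 to 4. Their median non-wounded level was 6.87, against 4.11 for all probe sets, and the part of level was not tested. Notch3, a receptor of basal keratinocytes and pericytes, differed by -0.81 ± 0.30 (adjusted p 0.284), with pair 4 higher and the other 3 lower. Of 28 Wnt pathway genes 21 were below 0 with a median of -0.06, but in pairs 2 to 4 15 were above 0. Of 36 FGF and IGF genes 25 were above 0, with a median of 0.10 that went to -0.00061 after scaling. Of 45 named genes for C-type lectins, NK receptors and Siglecs 1 rose (Cd207) and 32 were above 0, or 13 after scaling. No gene passed among 29 of TGF-beta, BMP and activin signalling (median 0.05), 21 proteoglycans (0.07), 19 sialyltransferases (0.11), 24 heparan sulfate enzymes (-0.01), 19 chondroitin and dermatan sulfate enzymes (-0.19), 27 of N-glycan assembly (-0.06), 24 of mucin-type O-glycans (0.04) or 8 galectins (0.01). The chondroitin median was -0.03 in pairs 2 to 4, and those of sialyltransferases, mucin-type O-glycans, proteoglycans and TGF-beta genes turned to -0.02, -0.08, -0.00056 and -0.02 after scaling.

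The remaining 4 called probe sets have no gene name in the annotation used, so they could enter no gene or marker list. The list counts above hold for named genes only, and a listed gene among the unnamed probe sets would be missed. NM_020008.1_psr1_at had the smallest p of all probe sets: it read 4.61, 4.77, 4.97 and 4.64 before and 5.94, 7.19, 7.51 and 7.43 at 2 h. The groups did not overlap, and the rise was 2.27 ± 0.23 (4.83-fold, adjusted p 0.00930), or 2.59 ± 0.12 in pairs 2 to 4 (adjusted p 0.00245). uc007bsm.1_psr1_s_at read 3.62, 3.64, 2.83 and 2.93 before and 4.95, 7.04, 8.30 and 7.85 at 2 h and rose by 3.78 ± 0.57 (adjusted p 0.0265), the largest difference after that of Ccl20. Its 8 values stood in the same order as those of Ccl20, and whether both probe sets read 1 transcript was not tested. In pairs 2 to 4 it was 4.60 ± 0.41 (adjusted p 0.0142).

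The other two fell. NM_001033416.2_psr1_at read 5.68, 7.27, 7.07 and 6.85 before and 3.88, 6.05, 5.97 and 5.41 at 2 h, and fell by 1.39 ± 0.21 (adjusted p 0.0265). Its groups overlapped through non-wounded sample 1, which lay below 2 h samples 2 and 3. uc009rxh.1_psr1_s_at read 7.19, 7.29, 7.39 and 7.67 before and 5.25, 6.64, 6.36 and 6.0 at 2 h without overlap, and fell by 1.32 ± 0.23 (adjusted p 0.0448). In pairs 2 to 4 the first of these passed (adjusted p 0.0142) and the second did not (adjusted p 0.0958).

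The pairs did not contribute alike. Among the 14 probe sets that rose, 12 had a smaller difference in pair 1 than in each of the other pairs, the exceptions being Havcr2 and Ccl21a, and all 3 that fell had a larger one. At least 1 log2 unit higher at 2 h were 41, 18, 23 and 43 probe sets in pairs 1 to 4, and at least 1 unit lower 91, 17, 16 and 36. Pairs 2 to 4 alone called 21 probe sets (1.69%), 16 higher and 5 lower. Of these 15 were among the 17 called with all pairs, and 6 were not, among them Cd83, Fut1 and Arsa.

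A direct test of the difference between pair 1 and pairs 2 to 4 called 0 of 1246 probe sets in limma, with 275 (22.1%) at an unadjusted p under 0.05 and a smallest adjusted p of 0.060, for Cxcl2 (-2.70 ± 0.24). The count depended on the setting: it was 106 after repeated quantile normalization, 139 after scaling, 110 with no replicate block and 125 without pair 4. With 1 pair against 3, a call says only that this pair differs.

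**Figure D3:**
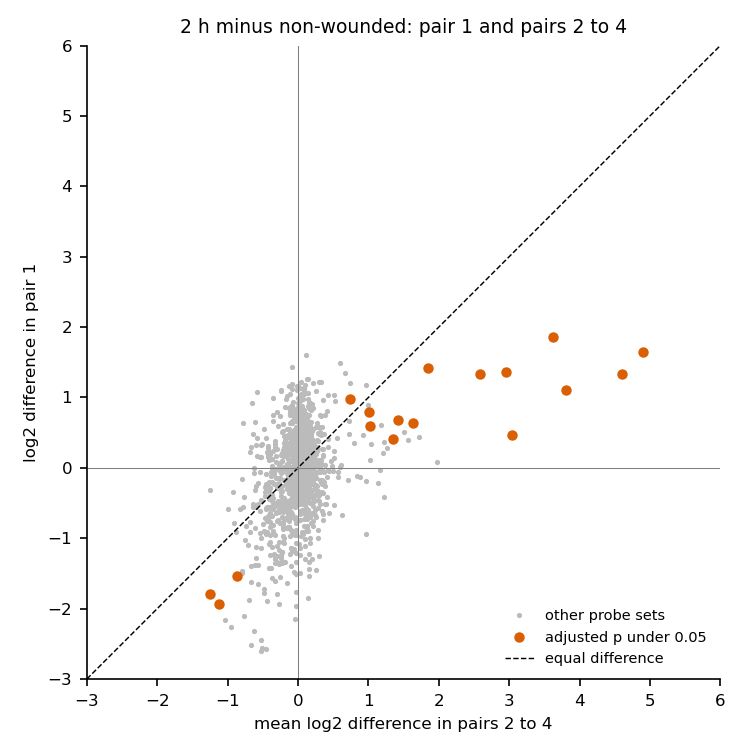
Log2 difference, 2 h minus non-wounded, in pair 1 (vertical axis) against the mean difference in pairs 2 to 4 (horizontal axis), 1 point per probe set, with the 17 that passed in colour and a dashed line of equal difference. Ccl20 lies at 4.91 on the horizontal axis and 1.65 on the vertical, and other probe sets near 0 in pairs 2 to 4 spread widely in pair 1.

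**Figure D4:**
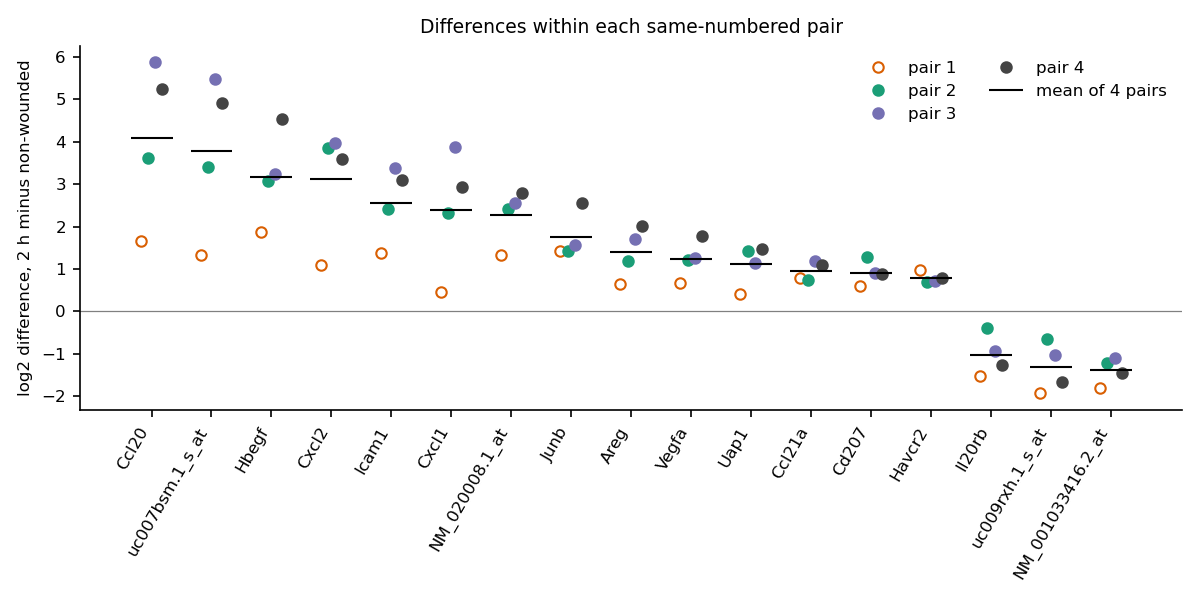
Log2 difference, 2 h minus non-wounded, in each of the 4 pairs for the 17 probe sets that passed. All 4 points of a probe set lie on 1 side of 0, from 0.41 (Uap1, pair 1) to 5.87 (Ccl20, pair 3) among those that rose.

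The differences also moved with the level of the probe sets. In pair 1 the median difference went from 0.24 in the lowest of 4 equal bins of level to -0.43 in the highest, in pair 3 from 0.04 to -0.27, in pair 4 from 0.10 to -0.03, and in pair 2 it was -0.04 and -0.05. Over all pairs the medians of the 4 bins, from low to high, were 0.09, 0.08, -0.04 and -0.22. The IL-1 family, Notch and lysosomal lists, with medians below 0, had median non-wounded levels of 6.02, 6.87 and 5.46. The neutrophil, fibroblast and endothelial markers, with all members above 0, had median non-wounded levels of 2.99, 3.30 and 3.12. The part of this trend in those lists was not tested. The 14 probe sets that rose were spread over the upper 3 bins with 3, 8 and 3 members, and 6 of them lay below the median non-wounded level. The 3 that fell lay in the upper 2 bins, with 1 and 2 members, and the part of the trend in them was not tested.

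**Figure D5:**
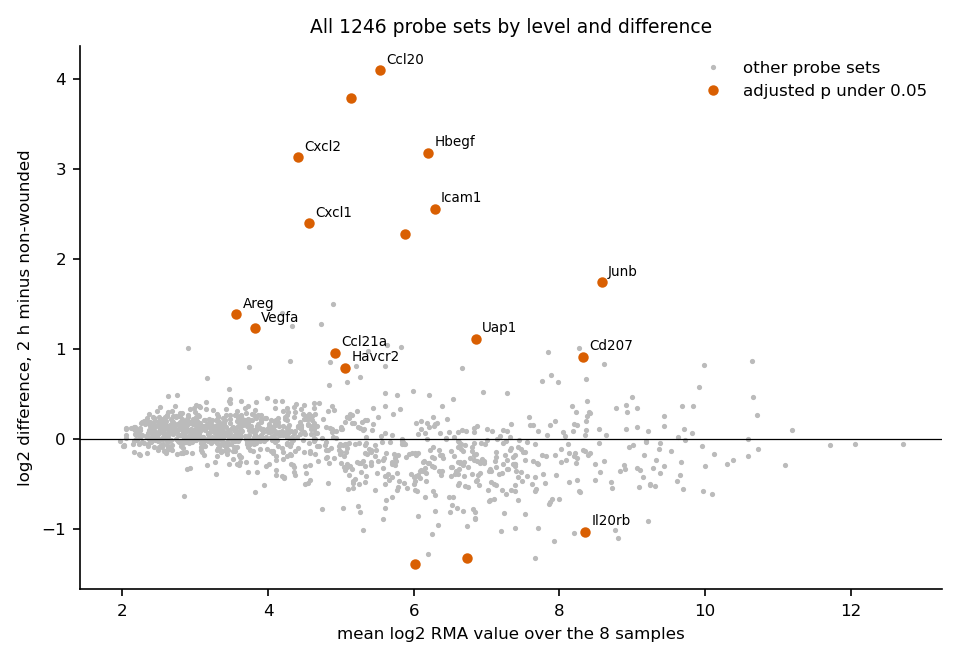
Log2 difference, 2 h minus non-wounded, against the mean log2 level, 1 point per probe set, with the called probe sets marked. The called probe sets stand off a cloud whose lower edge drops at high levels, where the median difference is -0.22.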

How the data were processed

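Total RNA was extracted with Trizol and labelled as biotinylated cRNA, per the labels' protocols. The authors deposited 1 table of log2 values for 1246 probe sets in 12 samples, and the submitters' processing notes name RMA, which corrects background, normalizes and summarises probes. The array's name, the software versions and any filter were not given in the sources used here. No detection calls come with RMA values, and precision is limited by the number of arrays.

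Probe set accessions were matched without versions to a RefSeq gene table of GRCm38.p6: 963 matched 1 symbol and 283 none. The main fit was limma 3.58.1 in R 4.3.3 on all 12 samples, with group and replicate number as fixed terms, moderated errors, two-sided tests and Benjamini-Hochberg adjustment over 1246 probe sets at 0.05. The 2 samples at 30 min add to the estimate of the spread, and the single samples at 0 h and 4 h add nothing to the contrast of 2 h with non-wounded. The replicate numbers of the titles were taken as pairs by the rule that set up this comparison, since the samples numbered 1 had a narrower range of values. Same-numbered samples of the 2 groups deviated together from their group means, with correlations of 0.796, 0.449, 0.651 and 0.297 for numbers 1 to 4. Number 1 differs in both groups and enters both group means, so it adds to all 4 correlations. No correlation between samples of different numbers was computed, so these values do not show that numbers 2 to 4 are true pairs. The scripts were tested on simulated data.

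Genes were named if they passed, had the next 20 smallest p, were among the 3 smallest p of a list, differed by at least 0.5 with 1 sign in all 4 pairs, were among the 10 largest rises or falls in pairs 2 to 4, or stood in a short fixed list; some genes that this rule names are not reported here. Of several probe sets of a gene, the one with the highest mean was used. The members and lists were chosen with earlier results of these data known, so lists are described by counts and medians with no test. Alternatives were other blocks, scalings, filters, priors, weights and thresholds, and leaving out each pair or sample; scaling with pairs 2 to 4 alone was added after seeing the data. Scaling gave every sample the same median and SD. Promoters are the 250 bases before each RefSeq gene start. Motifs were searched on both strands. Figures were drawn with matplotlib 3.10.9.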

Additional observations from a re-analysis of the deposited data

Results flagged for a closer look

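Among 34 groups of 4 values tested for a sample far from the others, 1 stood out: Cxcl2 in 2 h sample 1 was 3.83, against 6.58 to 6.76 in the other 3 2 h samples. The gap to the nearest of them was 0.939 of the whole range. Chance alone passes the limit used in about 1 in 20 groups, so the count of 1 in 34 is not above that share. What set this value apart was not tested.

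The single sample taken 4 h after wounding, which is numbered 1, was above the highest non-wounded sample for 11 of the 14 probe sets that rose at 2 h, where 38.8% of all 1246 probe sets were. Its SD over all probe sets was 1.55, against 1.81 to 2.30 in the non-wounded samples, and its part in values of dim probe sets such as Areg and Vegfa was not tested. Among ligands of the EGF receptor it read 6.90 for Hbegf and 3.52 for Areg, against highest non-wounded values of 5.13 and 2.96. Among chemokines it read 7.30 for Ccl20 (3.95), 6.30 for Cxcl1 (3.62), 3.94 for Cxcl2 (2.99) and 6.01 for Ccl21a (5.02), with the highest non-wounded value in parentheses. Icam1 read 6.84 (5.50), Vegfa 3.50 (3.35) and Havcr2 5.74 (4.84). The unnamed probe sets NM_020008.1_psr1_at and uc007bsm.1_psr1_s_at read 5.66 (4.97) and 6.14 (3.64). Compared within number 1, Cxcl1 was 4.09 at 2 h and 6.30 at 4 h, whereas Icam1 was 6.05 and 6.84. With 1 sample at 4 h these values have no replicate check.

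At 30 min, with 2 samples, both lay above all non-wounded samples for 3 of the 14, where 2.49% of all probe sets did. The lower of the pair read 3.18 for Cxcl2, 3.33 for Areg and 5.17 for Ccl21a, against highest non-wounded values of 2.99, 2.96 and 5.02. The single sample at 0 h was above these highest values for the same 3 of the 14, at 3.27, 3.24 and 6.28, where 29.5% of all probe sets were.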

How the results depend on the processing

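Of 17 calls in limma with the replicate block, 3 were made with no replicate block. The count was 9 after centring on medians, 10 after scaling, 2 at an adjusted p of 0.01 and 132 with array weights (51 higher, 81 lower). It ran from 0 to 21 over the left-out pairs and from 0 to 11 over single samples left out with no block, where an unadjusted p under 0.05 was reached by 40 to 70 probe sets. No called probe set passed with every pair left out in turn. The count stayed within 1.5 times the main one with the 8 samples alone (20), a random block (15) and quantile normalization (13). It also did with no dim probe sets (19), 1 probe set per gene (13) and a robust prior (20). So it did with a log2 difference of at least 1 (14), and with scaling of pairs 2 to 4, chosen after seeing the data (25). The 8 samples alone kept 14 of the 17 main calls, a random block 12, quantile normalization 11 and no dim probe sets 17. With the 8 samples alone, limma gave adjusted p of 0.0907 for Cxcl1, 0.0691 for Il20rb and 0.0535 for Uap1, which did not pass. These calls depended on samples at another time, which enter the estimate of the spread.

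The test of pair 1 against pairs 2 to 4 called 0 probe sets (275 at an unadjusted p under 0.05), but 1 with all 12 samples, 106 after quantile normalization, 139 after scaling, 110 with no replicate block and terms for number 1, and 0 to 125 with a pair left out. It called 0 without dim probe sets (172 unadjusted). The cause of these shifts was not tested. Over 55 named genes and probe sets, 1033 of 1313 values kept their direction and side of the threshold. Of the others 224 lost the call, 55 gained it and 1 reversed: Egfr was 0.41 without 2 h sample 1 and no block. Only the 17 called probe sets could lose a call, so the share of all values that stayed does not measure how stable the calls were. Among the called genes the settings passed ran from 16 of 24 for Hbegf to 3 of 24 for Il20rb. The fit of numbers 2 to 4 alone is the same as that without pair 1 and is counted under both. Whether values near the lower end of the scale, such as those of Areg and Il6, lie above background is not known, since RMA gives no detection call.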
